A study of Rattus norvegicus with 18 samples.

Results

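The genes described here encode subunits of the 5 oxidative phosphorylation complexes of mitochondria, with a few of their helpers, read in 9 populations of testis cells taken from rats aged 22 days. They were chosen by symbol alone: genes named Atp5, Uqcr, Cox4 to Cox8 or Nduf followed by a, b, c, s or v in the array annotation, together with Cyc1 and the 4 Sdh genes. The rule took 86 of the 13807 genes that the arrays name. Of these, 34 belong to complex I, 4 to complex II, 8 to complex III, 17 to complex IV and 15 to complex V. The other 8 are not subunits: the assembly factors Ndufaf1, Ndufaf3, Ndufaf4, Ndufaf5, Ndufaf7 and Ndufaf8, the ATP synthase inhibitor Atp5if1 and the pseudogene Cox6c-ps1. A further 7 probe sets list a gene of the rule beside other genes and were left unnamed. Subunits encoded by the mitochondrial genome carry other symbols and were not analysed here.

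Of the 9 populations, 7 were germ cells. One population had bound to laminin, a protein of the basement membrane, and another had not bound; both are labelled as cultured, with no day given. Another 4 had been on feeder layers of STO cells, a mouse embryonic fibroblast line, for 1, 5, 10 or 20 days. A further population had been on MSC1 cells, a mouse line of Sertoli cells, for 20 days. The 2 somatic populations were interstitial cells, which lie between the seminiferous tubules, and the tubules' own somatic cells. The labels give no strain, genotype or agent, and do not say whether the feeder cells were removed. RNA of each population was put once on each of 2 array types, so every fold compares single libraries and carries no error between cultures and no p-value.

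Oxidative phosphorylation passes electrons from NADH through complex I, and from succinate through complex II, to ubiquinone, then through complex III and cytochrome c to oxygen at complex IV. Complexes I, III and IV pump protons out of the mitochondrial matrix, and complex V, the ATP synthase, makes ATP from their return. Some subunits have counterparts in the bacterial enzymes and carry the catalytic and electron-carrying sites. The many supernumerary subunits, mostly small proteins, were for the most part added in eukaryotes. In the testis, spermatogonia outside the blood-testis barrier are known to lean on glycolysis, and cells entering meiosis rely more on respiration of the lactate that Sertoli cells supply.

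The libraries matched their labels in outline. The summed signal of 6 general germ cell markers was 14241 to 32446 in the 7 germ cell libraries and 769.8 and 800.9 in the somatic ones. Leydig markers summed to 9481 in interstitial and 1719 in tubular somatic cells. Sertoli markers summed to 14352 in tubular somatic and 7539 in interstitial cells, where fibroblast and matrix markers summed to 31603. Not every listed marker followed the labels. Amh (18.4 and 47.5) and Sox9 (32.1 and 8.1) were below the floor of 50 in both somatic libraries. Insl3 (36.6) and Hsd17b3 (31.4) of the Leydig list were below it in interstitial cells. On 100 probe sets that both array types carry, none of them from an oxidative phosphorylation gene, the SD of a log2 fold per array was 0.245 over all pairs of libraries, so that 2 SD correspond to 1.4-fold. That spread covers the array alone. In RNA from whole populations, fewer cells of a type and less RNA per cell cannot be told apart.

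Most oxidative phosphorylation genes gave a bright signal in every population. A signal of at least 250, which is the average of each array, was reached in all 9 libraries by 51 of the 86 genes, in at least 1 library by 75 and in none by 11. The mean signal reached 250 for 77.9% of them and for 40.0% of all genes. Between the lowest and the highest library the median gene of the 75 spanned 3.51-fold, and the median of the 8490 genes on the arrays with such a signal 4.77-fold. The highest of the 9 libraries was that of laminin-binding cells for 30 of the 75 genes, or 40.0%, against 13.2% of the 8490. The lowest was STO day 20 for 24, or 32.0%, against 11.7%.

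**Figure D1:**
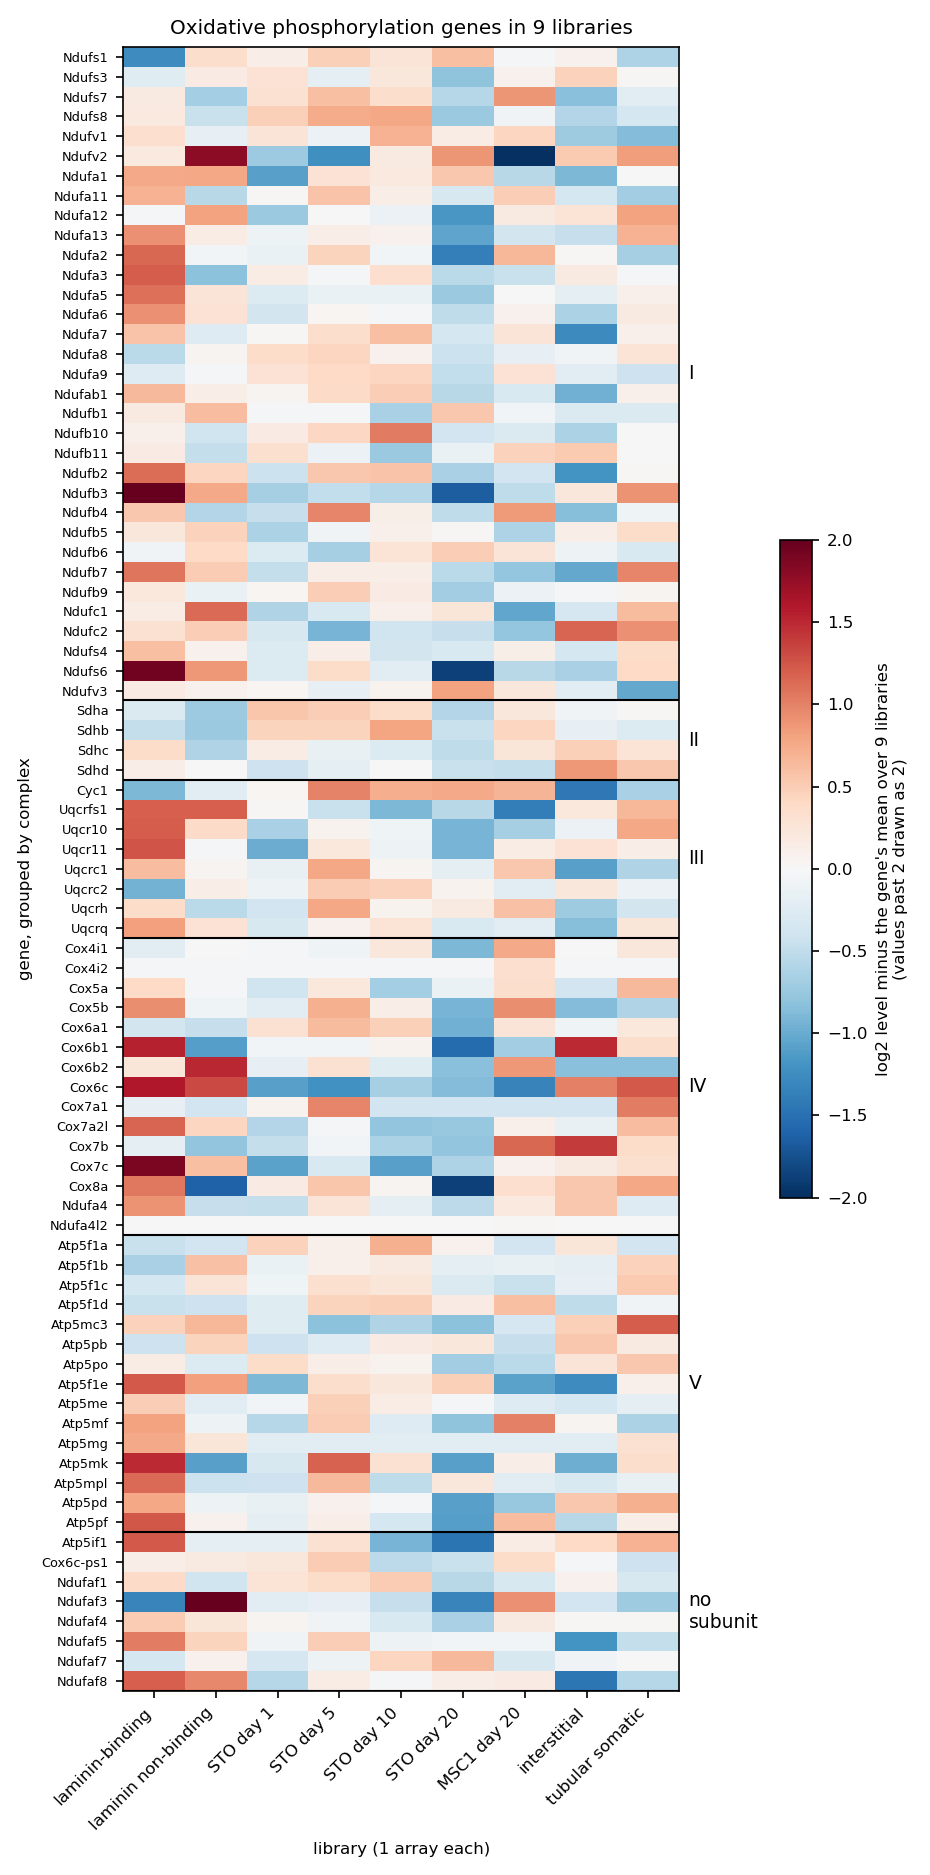
Log2 level of each oxidative phosphorylation gene (rows, grouped by complex) in each library (columns), minus the gene's own mean over the 9 libraries, with values past 2 drawn as 2; the 3 genes below the floor in every library are left out. Red fills much of the laminin-binding column and blue much of the STO day 20 column, and neighbouring rows of a complex often differ.

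By complex, the median level relative to each gene's own mean separated the libraries differently. Complex IV had its lowest median on STO day 20, at -0.78 on the log2 scale, and none of its 15 measured genes was above its own mean there. Complex III had its highest median in laminin-binding cells, at 0.72. Complex II was not high in laminin-binding cells, at -0.08, and had its lowest median in non-binding cells, at -0.66. Genes of any function whose mean signal reached 250 had medians between -0.24 and 0.15 in the 9 libraries.

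**Figure D2:**
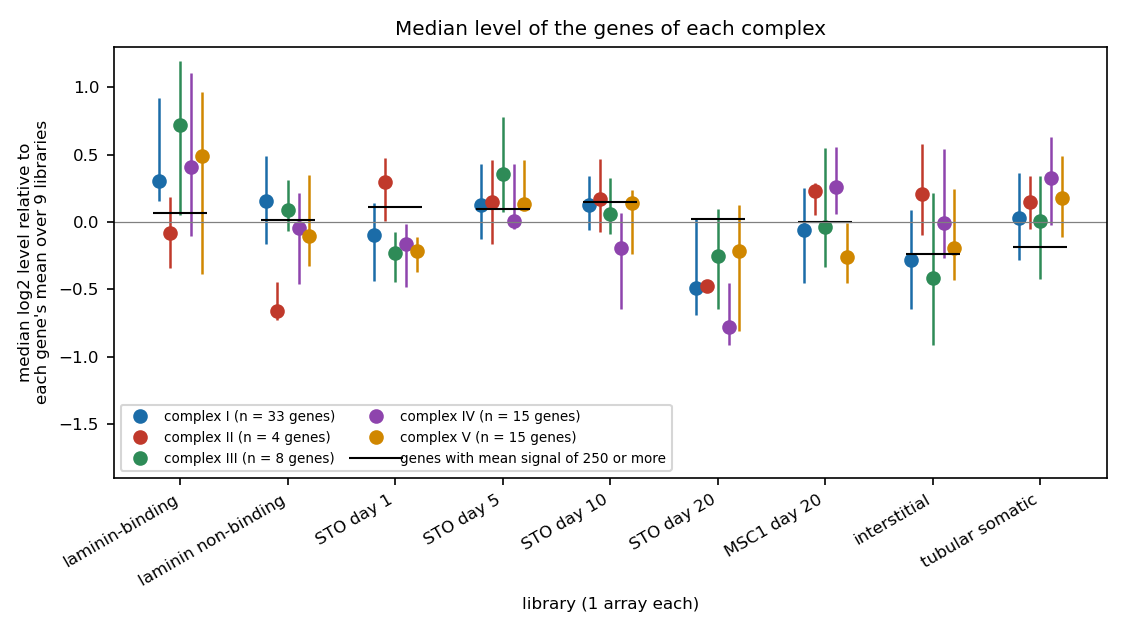
Median log2 level of the genes of each complex relative to each gene's mean (points) with the middle 50% of its genes (vertical lines), by library, and the median of all genes with a mean signal of 250 or more (black bars). Complexes I, III, IV and V lie above the bars in laminin-binding cells, and all 5 complexes lie below the bar on STO day 20.

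Within complexes, some genes were nearly flat and others wide. In complex I the narrowest were Ndufa9, a subunit that helps hold the arms of the complex together, at 921.6 to 1754, and Ndufa8 at 355.9 to 693.2. The widest was Ndufv2, which holds an iron-sulphur cluster near the site of NADH oxidation, at 83.1 on MSC1 to 1537 in non-binding cells, or 18.5-fold. It was followed by Ndufs6, a zinc-binding subunit needed late in assembly, at 509.2 on STO day 20 to 7063 in laminin-binding cells, or 13.9-fold. Ndufv2 read 508.6, its median, in the library where Ndufs6 was highest. In complex III the widest were the Rieske iron-sulphur protein Uqcrfs1 (6.0-fold) and cytochrome c1, Cyc1 (5.35-fold), and the narrowest Uqcrc2 (2.75-fold) and Uqcrh (2.80-fold). In complex IV Cox6b1 (8.46-fold) and Cox7c (7.82-fold) were widest and Cox5a (2.52-fold) and Ndufa4 (2.68-fold) narrowest. In complex V Atp5mk (6.0-fold) and Atp5f1e (5.60-fold) were widest and Atp5me (1.80-fold) and Atp5f1c (1.97-fold) narrowest. Of the genes that are no subunits, Atp5if1 spanned 6.49-fold, Ndufaf1 2.10-fold and Ndufaf7 2.01-fold.

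Several subunits of complex IV come as a broadly expressed gene and a tissue-restricted copy. Cox6a2 and Cox8b, the forms of heart and skeletal muscle, never passed a signal of 22.4 and 5.5. Cox7a1, another muscle form, lay between 15.5 and 133.3, Cox4i2, the form of the lung, between 2.7 and 65.1, and Ndufa4l2, known as induced by low oxygen, between 6.4 and 51.2. Each stayed below 250 in all 9 libraries. Of the broadly expressed partners, Cox6a1 read 324.7 to 980.6, Cox8a 356.5 to 2702, Cox4i1 338.3 to 1062 and Ndufa4 217.3 to 582.7. Levels of different probe sets are not set against each other here, since each has its own response. Cox7b read 27.5 to 225.7, and its restricted copy Cox7b2, like Cox8c and the Cox7a1 partner Cox7a2, was named by no probe set of a single gene and was not analysed here.

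Cox6b2, the testis form of Cox6b, read 105.1 in laminin-binding, 254.1 in non-binding, 31.7 in interstitial and 1.4 in tubular somatic cells. On STO it read 79.5, 110.5, 75.3 and 32.1 on days 1, 5, 10 and 20, and on MSC1 162.3. It was highest in non-binding cells and below the floor in both somatic libraries and on STO day 20. Its broadly expressed partner Cox6b1 read 1457 in laminin-binding, 233.4 in non-binding, 1420.3 in interstitial and 637.9 in tubular somatic cells. On STO Cox6b1 read 483.9, 483.7, 528.3 and 172.2, and on MSC1 309.5. The order of the germ cell libraries on the 2 probe sets was thus different: the sorted library that was high for Cox6b1 was low for Cox6b2.

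Laminin binding is a property used to enrich spermatogonial stem cells, and the sort asks how bound and unbound germ cells differ. Of 81 oxidative phosphorylation genes with a signal above the floor on at least 1 side, 15 were called higher in bound cells and 6 lower, where a call needs at least 2-fold and at least 250 on the brighter side. Of all genes 12.9% were called higher and 11.9% lower, and of bright genes, those whose mean signal reached 250, 19.3% and 17.8%, so the 18.5% called higher here is near the share of bright genes. The median fold of the 81 genes was 0.51 on the log2 scale, against 0.22 for all genes and 0.11 for the bright ones, with 55 genes above 0 and 26 below.

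The genes called higher in bound cells were mainly small supernumerary subunits. Cox8a, a small membrane subunit of complex IV, read 2702 in bound and 425.9 in unbound cells, or 6.34-fold. Cox6b1, which links the monomers of the complex IV dimer, was 6.24-fold higher, and Atp5mk, which helps dimers of the ATP synthase form, 6.0-fold, at 7849 against 1309. Bound cells were the highest of the 9 libraries for all 3 genes, and unbound cells the lowest or the second lowest.

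Ndufa3 of complex I was 4.05-fold higher in bound cells, at 443.3 against 109.4. Atp5mpl was 2.94-fold higher, Atp5if1, which blocks ATP hydrolysis by the synthase, 2.68-fold, and Ndufa4 2.56-fold. Between 2.43-fold and 2.03-fold came Cox7c, Uqcr11, Ndufb3, Ndufa2, Atp5pf, Ndufb4, Ndufs6 and Cox5b.

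The genes called lower in bound cells included parts of the catalytic core. Ndufs1, the largest iron-sulphur subunit of complex I, read 238.3 against 730.7 and was 3.07-fold lower. Ndufv2 was 3.02-fold lower, at 508.6 against 1537. Atp5f1b, the catalytic beta subunit of the ATP synthase, was 2.36-fold lower, at 1840 against 4337. Uqcrc2, named a core protein of complex III but counted here as supernumerary, was 2.11-fold lower. A dimmer probe set of Uqcrc2 did not show this, at 172.9 against 158. Cox6b2 was 2.42-fold lower. The assembly factor Ndufaf3 read 13.3 against 1530.3, at least 30.6-fold lower.

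**Figure D3:**
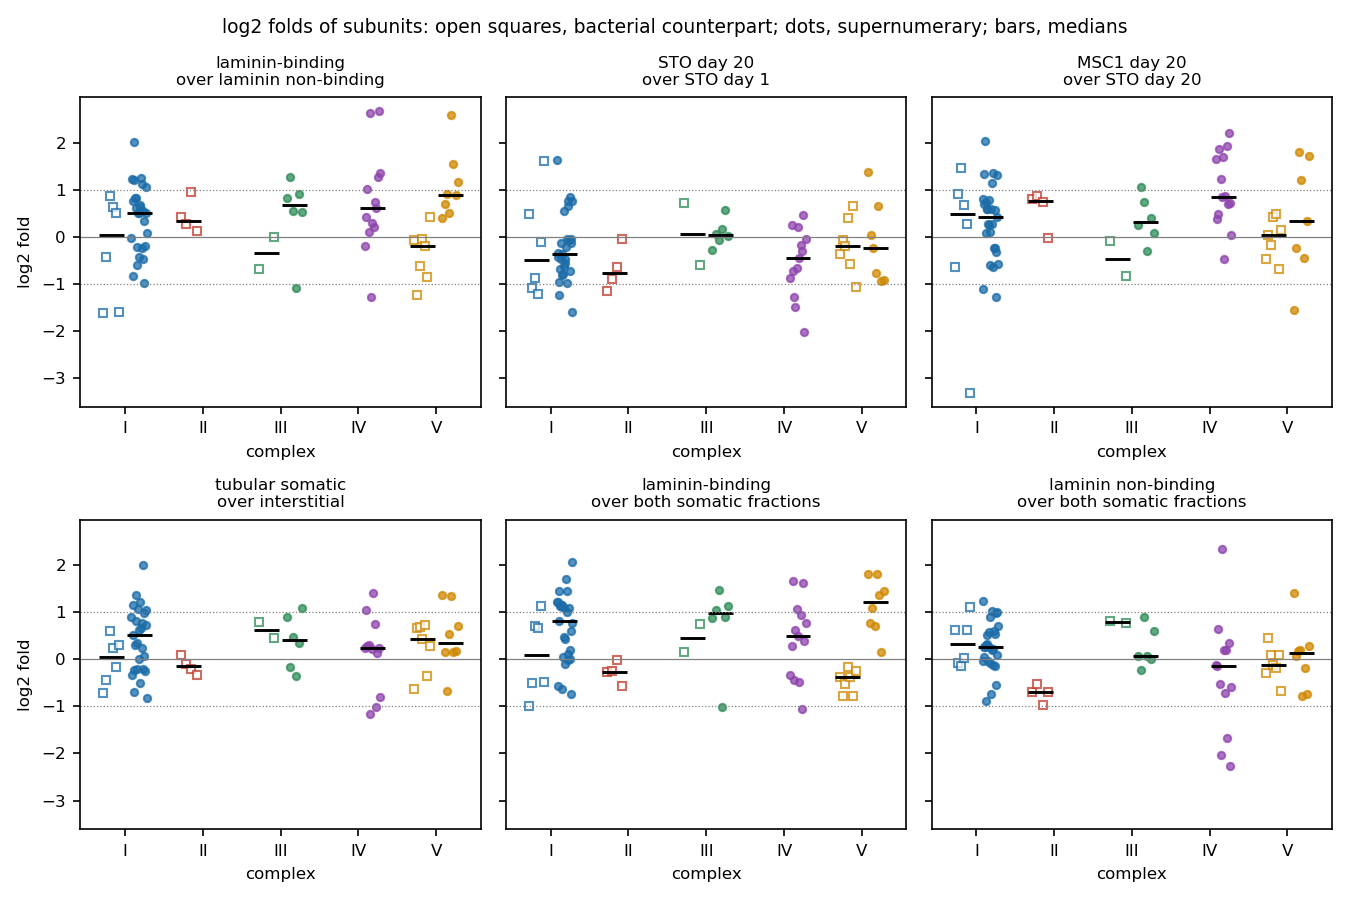
Log2 fold of each subunit in the 6 comparisons, by complex, with open squares for subunits that have a bacterial counterpart, dots for supernumerary ones, bars for medians and dotted lines at 2-fold. In laminin-binding cells the 8 supernumerary subunits of complex V all lie above 0 against non-binding cells, and 6 of the 7 with a bacterial counterpart lie below 0.

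Subunits were therefore split by ancestry, a grouping chosen after these values were seen, so its values are a description. The classes follow a fixed list of symbols that was not checked against bacterial sequences. Some subunits counted as supernumerary may therefore have relatives in bacteria. The 19 subunits with a bacterial counterpart had a median log2 fold of -0.04 between bound and unbound cells, with 0 called higher and 3 lower. The 54 measured supernumerary subunits had 0.62, with 14 called higher and 2 lower. Of all genes 12.9% were called higher and 11.9% lower, and of bright genes 19.3% and 17.8%. In complex V the medians were -0.20 and 0.90, and in complex I 0.04 and 0.51. Of the 19, none had its highest signal in laminin-binding cells, against 26 of the 49 supernumerary subunits with a signal of at least 250, or 53.1%. Of all genes with such a signal the share was 13.2%. The lengths of the transcripts, which may differ between the classes, were not analysed here.

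Some genes of complex V show the split. Its epsilon subunit Atp5f1e, which has no bacterial counterpart of its own, read 4209 in bound cells, 3175 in unbound cells and 751.5 and 1927 in the interstitial and tubular somatic libraries. Atp5pf, the coupling factor in the stalk, read 2693, 1204, 771.9 and 1255 in the same order. Atp5f1b read 1840, 4337, 2521 and 3980.0, and the gamma subunit Atp5f1c 2256, 3457, 2577 and 4151.5. Atp5f1e and Atp5pf were thus highest, and Atp5f1b and Atp5f1c lowest, in the bound cells among these 4 libraries. Not every subunit with a bacterial counterpart was lowest there. Atp5po read 659.8 in bound and 490.6 in unbound cells, and Atp5f1d 299.1 in bound and 288.3 in interstitial cells.

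Meiotic markers moved with this comparison. The 11 meiotic and pachytene markers on the arrays summed to 2328 in bound and 30497 in unbound cells, and 9 of the 10 measured were called lower in bound cells. Sertoli markers summed to 2092 and 1357 and fibroblast and matrix markers to 1496 and 1825. On type A the Gapdh signal of the 3' over the 5' probe set, a sign of RNA or amplification length, was 7.07 and 5.63, and that of beta-actin 21.6 and 8.91. On type B they were 8.83 and 5.33, and 13.1 and 11.6. The part of these in the folds was not tested.

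The same 2 germ cell libraries were set against both somatic fractions, with a call against each of the fractions needed. These comparisons share libraries with the one before and are not independent of it. In laminin-binding cells 15 of 81 genes were called higher and 0 lower, against 11.1% and 7.8% of all genes and 18.9% and 10.4% of bright genes. The median log2 fold was 0.60, against 0.10 for all genes and 0.26 for bright ones. The supernumerary median was 0.84 and that of subunits with a bacterial counterpart -0.27, and in complex V these were 1.22 and -0.39 with no overlap of the 15 genes.

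The largest fold against the nearer somatic library was that of Ndufaf8, an assembly factor of complex I, at 684.7 against 110.3 and 201.9, or 3.39-fold. Cox7c (2.93-fold), Cox5b (2.90-fold), Ndufs6 (2.89-fold) and Ndufaf5 (2.84-fold) followed. Uqcrc1, a core protein of complex III, read 2990 against 919.7 and 1285 and was 2.33-fold higher. Also called were Atp5mpl, Atp5mk, Atp5f1e, Ndufa2, Ndufb3, Atp5pf, Ndufb2, Ndufa3 and Ndufv1, at 2.42-fold to 2.03-fold, of which Ndufv1 carries the NADH site. Of these 15 genes only Ndufv1 is a subunit with a bacterial counterpart. The lowest folds were those of Ndufs1 (238.3 against 608.8 and 371.6), Uqcrc2 (941 against 2136 and 1671), Cox7b (76.1 against 225.7 and 111.5) and Atp5f1b, none of them called. The dimmer probe set of Uqcrc2 read 172.9 against 127.5 and 196.2.

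In non-binding cells 3 of 81 genes were called higher than both somatic fractions and 2 lower, against 11.9% and 9.21% of all genes. The median log2 fold was 0.09, against -0.04 for all genes and 0.27 for bright ones. Ndufaf3 was 16-fold higher, at 1530.3 against 95.6 and 76.2, Cox6b2 at least 5.08-fold, and Ndufaf8 2.88-fold. Cox8a was 4.45-fold lower, at 425.9 against 1896 and 2221, and Cox6b1 2.73-fold lower. Of the genes not called, Ndufa1 (7604 against 2375 and 4399), Uqcrc1, Cox5b and Atp5f1e were the highest of complexes I, III, IV and V, and Ndufa3 (109.4 against 218.4 and 186.7), Uqcr11 (422.4 against 523.7 and 469.6) and Atp5mk the lowest of I, III and V. With every array scaled to the same 75th percentile 6 were higher and 2 lower. Against the interstitial library alone 16 genes were higher and 4 lower, where 16.9% of all genes were higher and 16.9% lower, and the 16 are 20% of 80 measured. Against the tubular library alone 3 were higher and 3 lower, against 16.3% and 15.6%. Laminin-binding cells had 27 higher (33.3%) and 2 lower against interstitial cells alone, with 17.3% and 15.7% of all genes. They had 19 higher (23.5%) and 1 lower against tubular cells alone, with 15.3% and 13.6%.

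Ndufaf3, which helps build the arm of complex I that reaches into the matrix, had the widest range of all 86 genes, at least 30.6-fold. It read 13.3 in laminin-binding, 1530.3 in non-binding, 108, 111.2, 90.6 and 49.1 on STO days 1, 5, 10 and 20, 234.5 on MSC1, 95.6 in interstitial and 76.2 in tubular somatic cells. The non-binding library was far above all others and the laminin-binding library was the lowest. The gene was read by a single probe set, so no other probe set of the gene could be compared.

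Only a few oxidative phosphorylation genes separated all germ cell libraries from both somatic ones. Ndufaf5, Ndufv1, Ndufv3 and Uqcrc1 were higher in all 7 germ cell libraries, which is 5.33% of the 75 genes against 19.3% of all genes. Ndufc2 and Sdhd were lower in all 7, or 2.67% against 14.9%, but for Sdhd a dimmer probe set read 1049 in laminin-binding cells, above the 390.5 and 309.7 it gave in the somatic ones. Uqcrc1 read 1705 to 3360 in the germ cell libraries and 919.7 and 1285 in the somatic ones.

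Tubular somatic cells were compared with interstitial cells. Of 80 measured genes 10 were higher in tubular cells and 1 lower, against 8.88% and 10% of all genes and 11.3% and 10.5% of bright genes. The median log2 fold was 0.28, against 0.02 for all genes, with 0.31 for complex I, -0.15 for complex II, 0.47 for complex III, 0.23 for complex IV and 0.43 for complex V. Ndufb7, a small subunit of the membrane arm of complex I, was 4.03-fold higher, at 1153 against 286.3. Ndufa7 (2.58-fold), Atp5f1e (2.56-fold), Atp5mk (2.52-fold), Ndufb2 (2.32-fold), Ndufa13 (2.23-fold), Uqcrq (2.12-fold), Ndufab1 (2.10-fold), Ndufs6 (2.07-fold) and Cox5a (2.06-fold) followed, all supernumerary. Cox6b1 was the gene called lower, 2.23-fold. The lowest folds in complexes I, III and V were those of Ndufv3 (89.7 against 158.2), Uqcrc2 (1671 against 2136) and Atp5mf (385 against 618.3), none of them called. The dimmer probe set of Uqcrc2 read 196.2 against 127.5. Leydig markers summed to 9481 in interstitial and 1719 in tubular cells, and macrophage markers to 6176 and 1281, and the Gapdh 3' over 5' signal on type A was 7.94 and 11.2. The part of these in the folds was not tested.

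Promoters were looked at because several subunit genes moved together and because NRF1 and ETS-family factors such as GABP are known to bind many of them. RefSeq promoter windows of the GRCr8 assembly, 250 bases before to 50 after the start, were matched to 77 of the 86 genes. GCATGCGC, the core of the NRF1 motif searched on both strands, was in 9 windows, or 11.7%, against 4.34% of the windows of genes on the arrays and 2.66% of all 27457. Its longer palindrome, which contains it, was in 5, or 6.49%, against 1.66% and 0.932%. CCGGAAGT, an ETS motif, was in 8, or 10.4%, against 6.96% and 4.01%, and TATAAA in 8, or 10.4%, against 8.43% and 14.3%. A match is a run of letters and not a measured site. The 110 bases before the start are shown for 7 genes that the text describes or that carry the motif close to the start, 5' to 3' on the strand of the gene, with the motif in capitals (GCGCATGC is the NRF1 motif and ACTTCCGG the ETS motif read on the other strand).
Uqcrc1 (chr8:118468113-118468222, plus strand, NRF1 motif): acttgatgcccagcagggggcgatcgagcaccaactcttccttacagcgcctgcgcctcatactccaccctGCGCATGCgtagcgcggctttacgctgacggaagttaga
Atp5po (chr11:44657484-44657593, minus strand, NRF1 motif): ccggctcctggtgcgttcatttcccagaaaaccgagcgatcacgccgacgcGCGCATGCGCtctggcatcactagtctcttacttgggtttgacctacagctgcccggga
Ndufa6 (chr7:115750318-115750427, minus strand, NRF1 motif): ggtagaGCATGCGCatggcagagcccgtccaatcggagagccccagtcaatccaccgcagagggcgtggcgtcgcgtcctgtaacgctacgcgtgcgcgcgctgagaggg
Cox8a (chr1:213833624-213833733, minus strand, 2 ETS motifs): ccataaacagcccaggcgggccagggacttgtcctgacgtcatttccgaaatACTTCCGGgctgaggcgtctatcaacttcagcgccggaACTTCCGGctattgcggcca
Cox5b (chr9:46417727-46417836, plus strand, ETS motif): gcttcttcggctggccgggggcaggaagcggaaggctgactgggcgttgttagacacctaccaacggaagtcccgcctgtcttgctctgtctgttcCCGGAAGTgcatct
Uqcrq (chr10:38089979-38090088, minus strand, ETS motif): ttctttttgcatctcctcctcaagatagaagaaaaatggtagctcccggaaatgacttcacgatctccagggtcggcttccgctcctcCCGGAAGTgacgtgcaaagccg
Ndufb7 (chr19:41477292-41477401, minus strand, ETS motif): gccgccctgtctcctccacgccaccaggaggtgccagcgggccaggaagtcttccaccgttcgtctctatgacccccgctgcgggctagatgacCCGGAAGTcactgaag

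Genes with and without the NRF1 and ETS letters had similar median folds in the sort, while the few with TATAAA had a higher one. Between laminin-binding and non-binding cells the 9 genes with GCATGCGC had a median log2 fold of 0.56 and the 64 measured genes without it 0.51. For CCGGAAGT these were 0.66 in 8 genes and 0.51 in 65. For TATAAA they were 1.06 in 7 genes and 0.47 in 66. For bound over both somatic fractions they were 1.36 and 0.55, for tubular over interstitial cells 0.90 and 0.27, and for MSC1 over STO 0.91 (6 genes) and 0.43. The order was the reverse for STO day 20 over day 1, at -0.56 (6 genes) and -0.23. For non-binding over both somatic fractions the medians were close, at 0.20 and 0.11. The genes with TATAAA are Atp5mg, Atp5mk, Atp5mpl, Cox8b, Ndufa2, Ndufa7, Ndufs6 and Uqcr10, of which Cox8b was below the floor, and these medians of few genes are a description. All are supernumerary subunits, the class that had the higher median in the sort, so the letters and the class cannot be told apart here. The TATAAA letters lie between base -209 (Ndufs6) and base -34 (Cox8b) from the start, on either strand. Cox8a, whose stretch holds CCGGAAGT at bases -58 to -51 and -20 to -13 from the start, was 6.34-fold higher in bound cells, while Ndufs1, whose window also holds it, was 3.07-fold lower. In Uqcrc1 the NRF1 letters lie at -39 to -32 and in Ndufa6 at -104 to -97. The ETS letters lie at -14 to -7 in Cox5b, -22 to -15 in Uqcrq and -16 to -9 in Ndufb7.

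Germ cells from feeder layers differed from the other 4 libraries in a few subunit genes, a grouping also chosen after values were seen. Of the 75 genes 8, or 10.7%, were higher in all 4 libraries not from feeders than in any of the 5 from feeders, against 3.72% of all genes: Atp5mc3, Cox6c, Cox7c, Ndufb3, Ndufb5, Ndufc2, Sdhd and Uqcrfs1. The widest gap was that of Cox6c, a small membrane subunit of complex IV. Cox6c read 3664.5, 2999, 2423 and 2823 in laminin-binding, non-binding, interstitial and tubular somatic cells, and 566.9, 522.1, 764.6, 660.1 and 479.2 on STO days 1, 5, 10 and 20 and on MSC1. The groups were 3.17-fold apart at their nearest libraries. For Ndufb3, Atp5mc3 and Ndufc2 they were 1.64-fold, 1.63-fold and 1.54-fold apart. For Uqcrfs1 (1.13-fold), Cox7c (1.07-fold), Ndufb5 (1.03-fold) and Sdhd (1.02-fold) the gap lay inside the 1.4-fold of the array error. On a dimmer probe set of Sdhd the groups overlapped, at 177.4 in non-binding cells and 605.3 on STO day 1.

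Atp5mc3, which encodes the ring subunit c of the ATP synthase, read 3875 to 6522 off feeders and 1597 to 2382 on them. Ndufb3 read 2468.5 to 8459.5 and 671.7 to 1508, and Uqcrfs1 932.6 to 1847 and 308.1 to 822.5.

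The single gene in the other direction, against 5.56% of all genes, was Cyc1, which hands electrons to cytochrome c. Cyc1 read 944.7 in laminin-binding, 1505 in non-binding, 649 in interstitial and 1117 in tubular somatic cells. On STO it read 1800, 3473, 2918 and 2981 on days 1, 5, 10 and 20, and on MSC1 2815. It thus ran opposite to Uqcrfs1, its neighbour in complex III. On type A the Gapdh 3' over 5' signal was 14.7 to 29.7 in the feeder libraries and 5.63 to 11.2 in the others, without overlap. Beta-actin overlapped, at 25.8 to 94.3 and 8.91 to 67.3, and on type B both controls did, Gapdh at 15.0 to 27.1 and 5.33 to 16.7 and beta-actin at 21.0 to 95.4 and 11.6 to 48.9. Their part in these differences was not tested.

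**Figure D4:**
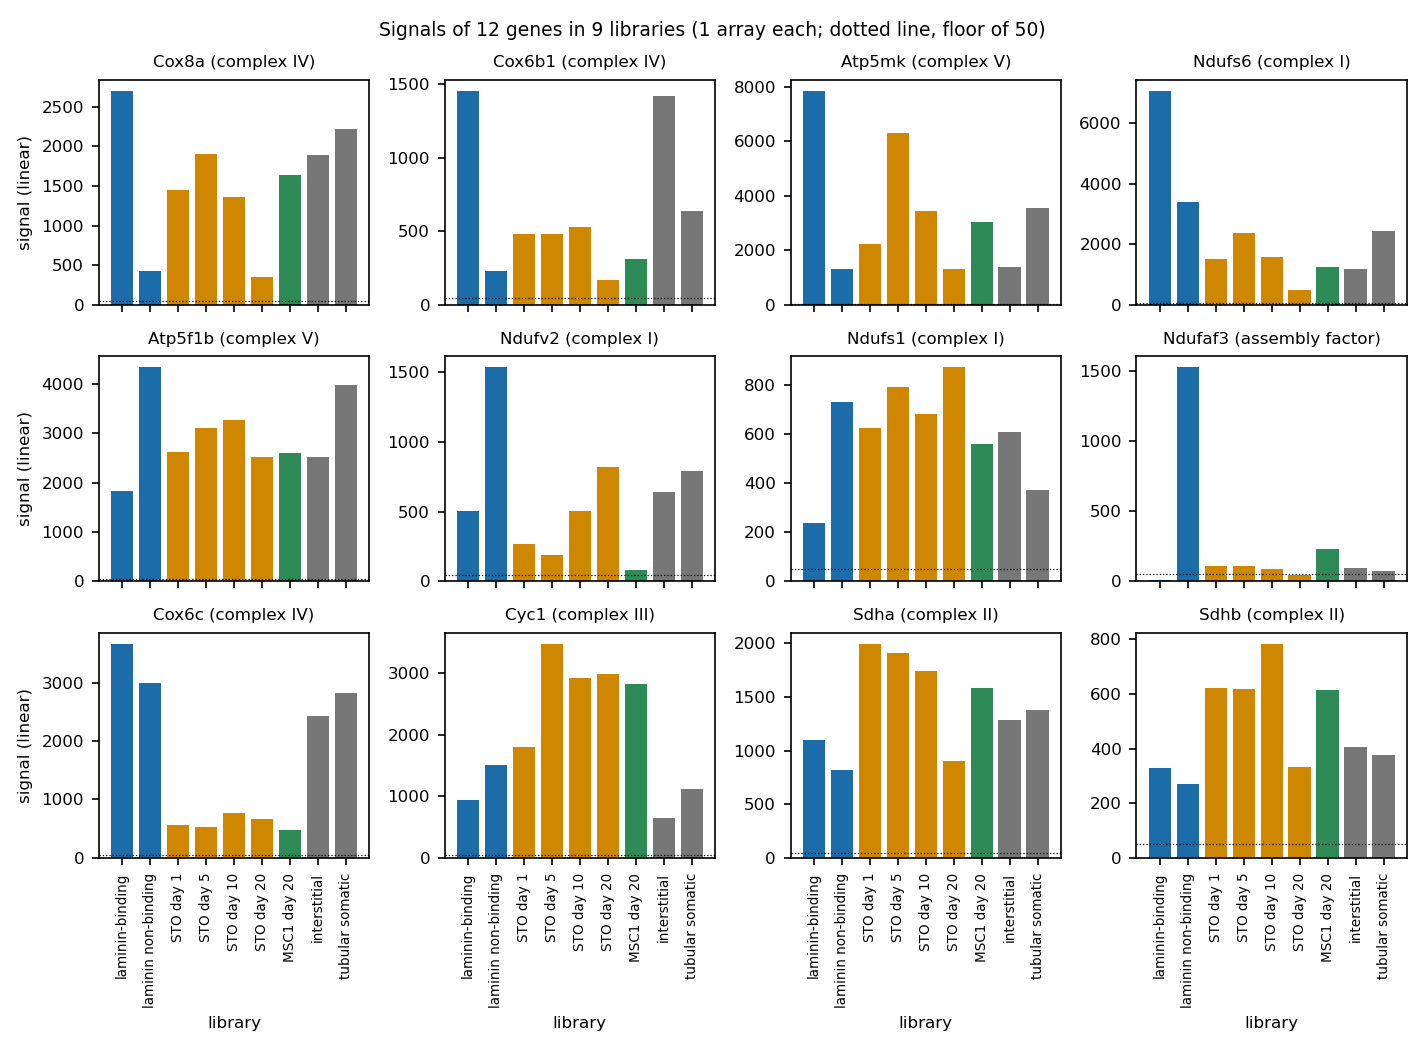
Signal of 12 genes in each library, on linear axes from 0, with 1 bar per array and the floor of 50 dotted. Cox6c is low in all 5 feeder libraries where Cyc1 is high, and Cox8a, Cox6b1 and Ndufs6 are lowest on STO day 20.

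Separately, 10 of the 75 genes, or 13.3%, were higher in both sorted libraries than in the other 7, against 4.7% of all genes: Atp5f1e, Cox6c, Cox7c, Ndufa1, Ndufa6, Ndufaf4, Ndufaf8, Ndufs6, Uqcrfs1 and Uqcrq. Ndufs6 read 7063 and 3387 in the sorted libraries and 509.2 to 2443 in the others. The nearest libraries were 1.72-fold apart for Ndufaf8 and 1.45-fold for Uqcrfs1. For the other genes they were 1.01-fold (Uqcrq) to 1.39-fold (Ndufs6) apart, inside the 1.4-fold of the array error.

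On STO feeders the genes were compared between day 20 and day 1. Of 80 measured genes 3 were higher on day 20 and 10 lower, against 6.93% and 9.65% of all genes and 10.4% and 14.4% of bright genes. The median log2 fold was -0.32, against -0.12 for all genes and -0.08 for bright ones, with 56 of 80 genes below 0. The complexes had medians of -0.36, -0.77, 0.04, -0.45 and -0.22 from I to V.

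The genes called lower were led by Cox8a at 4.07-fold. Cox8a read 1452, 1908, 1357 and 356.5 on days 1, 5, 10 and 20. Ndufs6 was 3.0-fold lower and read 1528, 2378, 1584 and 509.2. Both were highest on day 5 and lowest on day 20. Cox6b1 (2.81-fold), Atp5if1 (2.42-fold), Cox6a1 (2.40-fold), Ndufa2 (2.37-fold), Ndufs8 (2.32-fold), Sdha (2.20-fold), Ndufs3 (2.13-fold) and Atp5po (2.09-fold), the stalk subunit that confers oligomycin sensitivity, followed. Ndufs8, Sdha, Ndufs3 and Atp5po are subunits with a bacterial counterpart, and the other subunits called lower are supernumerary.

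Higher on day 20 were Ndufa1, an essential membrane-arm subunit of complex I encoded on the X chromosome, at 2086, 5386, 5054 and 6446, and Atp5f1e, at 960.6, 2297, 2106 and 2501. Both were low on day 1 alone. Ndufv2 read 268.4, 189.5, 502.2 and 822.9 and was 3.07-fold higher on day 20 than on day 1. In complexes III and IV the highest folds were those of Cyc1 (1.66-fold) and Cox7c (1.38-fold), neither of them called.

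**Figure D5:**
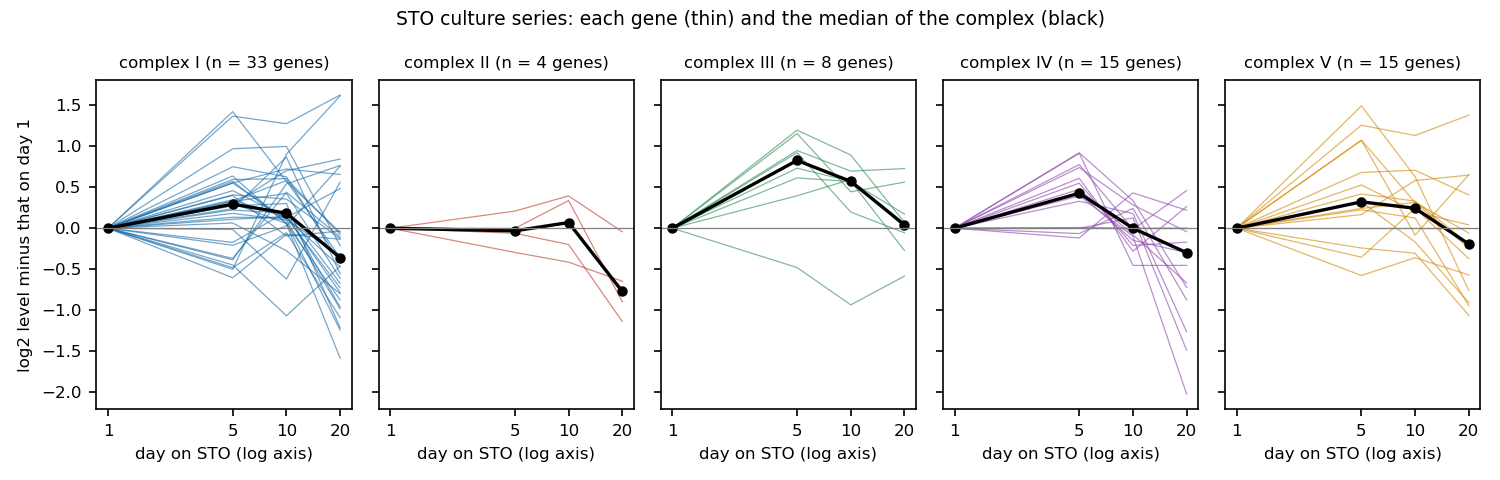
Log2 level of each subunit gene on STO feeders minus its level on day 1 (thin lines) and the median of its complex (black), against culture day on a log axis. In complexes I, III, IV and V the median is highest on day 5, and in complexes I, II, IV and V it is lowest on day 20.

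Step by step the series was not a steady slope. From day 1 to day 5 the median change of the 83 genes above the floor in any library was 0.32 on the log2 scale, with 61 up and 20 down, and in complex III it was 0.83. From day 5 to day 10 the median was -0.12. From day 10 to day 20 it was -0.48, with 57 down and 22 up, and 19 of the 83, or 22.9%, were at least 2-fold lower with no minimum of brightness, against 10.1% of all genes and 12.2% of bright ones. Bright genes of any function had medians of -0.03, 0.06 and -0.11 over the same steps. The supernumerary subunits had 0.42, -0.14 and -0.54, and those with a bacterial counterpart -0.00, 0.03 and -0.44, so the early step was seen in the first class and the late step in both.

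A straight line over log2 culture day was fitted with limma to every probe set averaging at least 100, on 4 libraries with 2 residual degrees of freedom. At an adjusted p of 0.05 it called 0 of 74 oxidative phosphorylation genes and 0 of 16066 probe sets, and at an unadjusted p of 0.05 it took 2 genes, or 2.7%, and 1500 probe sets, or 9.34%. These 2 were Ndufa1, with a slope of 0.37 ± 0.10 (SE) per doubling of days and a limma adjusted p of 0.426, and Atp5f1e, at 0.32 ± 0.11 (SE) and 0.453. Ndufv2 was next among genes with upward slopes (0.37, limma adjusted p 0.534), and the lowest p-values of downward slopes were those of Cox8a (-0.38, 0.572), Atp5if1 (-0.29, 0.584) and Sdha (-0.22, 0.593). Without the day 1 library the fit called 9 genes, upward for Ndufv2 and downward for Cox8a, Ndufs6, Atp5mk, Cox5b, Cox6a1, Ndufa2, Ndufb4 and Atp5if1, among 1733 of 16009 probe sets. The spread in this fit is the departure from a line and not that of repeated cultures.

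Meiotic markers summed to 4629, 3649, 4513 and 16239 on days 1, 5, 10 and 20, markers of undifferentiated spermatogonia to 8303, 6713, 4887 and 3867, and fibroblast and matrix markers to 4931, 2152.5, 3261 and 7320.3. The low oxidative phosphorylation signals of day 20 thus came in the library with the highest meiotic and matrix sums of the series. The part of these was not tested. Single markers moved both ways. Of the 11 meiotic markers 9 were above the floor on day 1 and 7 on day 20. Ldhc read 149.3 on day 1, 24.7 on day 20 and 6938 in non-binding cells. Spo11 read 101.5, 2381 and 2417 in the same order. Of the matrix list Col5a2 read 2212 and 1475 on days 1 and 20, and Col1a2 103 and 760.8. Cox8a, Cox6b1 and Atp5mk were low both on STO day 20 (356.5, 172.2 and 1317) and in non-binding cells (425.9, 233.4 and 1309), the pair of germ cell libraries with the highest meiotic sums. Other genes that were lowest on STO day 20 were high in non-binding cells: Ndufa12 read 342.1 and 1343, Ndufs6 509.2 and 3387, and Ndufb3 671.7 and 3573. These genes were picked after their values were seen, and the low signals of the 2 libraries do not coincide gene by gene. For Ndufa12 this depends on the probe set. A dimmer one read 212.3 on STO day 20, 105.5 on day 1 and 237.7 in non-binding cells. The Gapdh 3' over 5' signal on type A was 20.7 on day 1 and 14.7 on day 20, and that of beta-actin 71.2 and 37.0, whose part was not tested.

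Feeder types were compared on day 20. Of 81 measured genes 15 were higher on MSC1 than on STO and 4 lower, against 10.1% and 8.58% of all genes and 13.1% and 14.6% of bright genes. The median log2 fold was 0.43, against 0.23 for all genes and -0.01 for bright ones, and it was 0.85 in complex IV, where 13 of 14 genes were above 0. In complexes I, II, III and V it was 0.43, 0.77, 0.17 and 0.10. The comparison shares the STO day 20 library with the one between days, so a low signal there enters both.

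Cox8a led the genes higher on MSC1, at 1636 against 356.5, or 4.59-fold. Ndufa2 was 4.10-fold higher, at 598.5 against 146, and Cox5b, a zinc-binding subunit of complex IV, 3.64-fold. Atp5mf (3.51-fold), Atp5pf (3.29-fold), Cox4i1 (3.14-fold), Atp5if1 (3.08-fold), Ndufs7 (2.74-fold), Ndufb4 (2.55-fold), Ndufa12 (2.54-fold), Ndufs6 (2.48-fold), Cox6a1 (2.34-fold), Atp5mk (2.32-fold), Ndufb3 (2.20-fold) and Uqcr11 (2.09-fold) followed. A dimmer probe set of Ndufa12 did not show this, at 173.4 on MSC1 and 212.3 on STO. Ndufs7, which carries the last iron-sulphur cluster before ubiquinone, is the only one of the 15 with a bacterial counterpart. That class holds 19 of the 78 subunits.

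Ndufv2 was 9.90-fold lower on MSC1, at 83.1 against 822.9. Atp5f1e (2.92-fold), Ndufc1 (2.42-fold) and Ndufa1 (2.14-fold) were also lower. The lowest folds of complexes III and IV were those of Uqcrfs1 (308.1 against 548.2) and Cox6c (479.2 against 660.1), not called. Ndufv2 and Ndufv1 form a pair within the NADH-oxidising module, and Ndufv1 read 754.6 on STO day 20 and 916.4 on MSC1. That difference of Ndufv1 lies within 2 SD of the array error, 1.46-fold for this pair of libraries. Markers of undifferentiated spermatogonia summed to 10248 on MSC1 and 3867 on STO, meiotic markers to 4500.3 and 16239, and Sertoli markers to 2386 and 1182. The Gapdh 3' over 5' signal was 27.4 and 14.7 on type A and 27.1 and 15.0 on type B, and that of beta-actin on type A 25.8 and 37.0. The part of these was not tested.

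With a 3-fold call the counts were small. In bound against unbound cells Cox8a, Cox6b1, Atp5mk and Ndufa3 remained as 4 higher genes and Ndufaf3, Ndufs1 and Ndufv2 as 3 lower ones, against 5.94% and 6.49% of all genes. On STO day 20 against day 1, 2 were higher and 2 lower, against 2.59% and 4.66%. On MSC1 against STO 7 were higher and 1 lower, against 4.37% and 3.28%. Between tubular and interstitial cells, 1 was higher and 0 lower, against 4.12% and 4.99%. Against both somatic fractions, bound cells had 1 higher and 0 lower (5.61% and 4.19% of all genes) and unbound cells 2 higher and 1 lower (6.58% and 5.95%). Only on MSC1, where the 7 are 8.64% of the 81 genes, did a share of these genes exceed that of all genes.

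Complex II, succinate dehydrogenase, also works in the tricarboxylic acid cycle and is built entirely from nuclear genes. Its flavoprotein Sdha read 1102 in laminin-binding, 818.8 in non-binding, 1288 in interstitial and 1373 in tubular somatic cells, and 1994, 1910.5, 1737, 905.2 and 1584 on STO days 1, 5, 10 and 20 and on MSC1. Its iron-sulphur subunit Sdhb read 328.6, 272.2, 404.8 and 377.9, and 620.7, 619.7, 784.5, 333.2 and 613.3. Both were high on STO days 1 to 10 and on MSC1 and low in the sorted libraries and on STO day 20. Sdhb was the single gene of the 75 lower in both sorted libraries than in the other 7, against 4.11% of all genes. Its gap was 1.01-fold, at 328.6 in laminin-binding cells and 333.2 on STO day 20, inside the array error.

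Between bound and unbound cells Sdhc had the highest fold of the complex (1.95-fold) and Sdhd the lowest (1.08-fold), and between the somatic fractions Sdha the highest and Sdhd the lowest. The membrane anchors were different. Sdhc read 655.8, 336.5, 708.4 and 617.3 in the 4 libraries off feeders and 358.9 to 599.3 on feeders. Sdhd read 730.4, 673.2, 1222 and 970.6 off feeders and 480.3 to 662.5 on them, lower in all 7 germ cell libraries than in the somatic ones. A dimmer probe set of Sdhd disagreed in the sort: it read 1049 in bound and 177.4 in unbound cells, and 605.3 and 135.3 on STO days 1 and 20. In bound cells it also stood above both somatic libraries (390.5 and 309.7) and was called higher there, where the brighter probe set read lower. The calls of Sdhd in the sort, on STO and against the somatic fractions therefore depend on the probe set. So do its place below the somatic libraries and its higher signal off feeders. Of the 11 genes with several probe sets, Ndufa7 and Ndufa12 were the others for which a probe set not used gave a call that the used one lacked, and none was called in opposite directions.

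Genes that feed or serve the chain were read from lists put together with earlier results in view. Of 20 measured genes of the tricarboxylic acid cycle and pyruvate dehydrogenase, 1 was called higher in bound than in unbound cells (Dlst, 2.26-fold) and 4 lower: Pdha2, the testis form of the pyruvate dehydrogenase alpha subunit (7.13-fold), citrate synthase Cs (4.33-fold), Dld (3.03-fold) and Idh3b (2.84-fold). Of all genes 12.9% were called higher and 11.9% lower. The median log2 fold of the 20 genes was -0.21 where that of the oxidative phosphorylation genes was 0.51. Against both somatic fractions 1 of the 20 was higher in laminin-binding cells and 7 lower, with a median of -0.35. Of all genes 11.1% were higher and 7.8% lower there.

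Of 28 measured assembly factors of the complexes outside the 86 genes, 3 were higher in bound than in unbound cells (Cox17, Cox14 and Acad9) and 2 lower (Pet100 and Atpaf2), with a median of 0.34. Of 5 electron carriers 1 was higher, Etfb (5.81-fold). Of 10 carriers and pores, a list that also holds Atp5if1, 2 were higher and 1 lower. Against both somatic fractions 0 were higher and 3 lower in bound cells. Of all genes 12.9% were higher and 11.9% lower in the sort, and 11.1% and 7.8% against both somatic fractions. The ADP/ATP carrier Slc25a4, which exports the ATP made, read 219.7 in bound and 201 in unbound cells against 1842 and 2194 in interstitial and tubular somatic cells.

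Of 16 biogenesis factors 2 were higher in bound cells than in unbound ones and 3 lower, with a median of 0.22. Of all genes 12.9% were higher and 11.9% lower. Tfam, which packages and transcribes mitochondrial DNA, was 2.13-fold higher, and Gabpa, the DNA-binding part of GABP, 7.33-fold lower, at 137.8 against 1011.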

How the data were processed

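RNA of 9 populations was read on 2 types of 1-colour oligonucleotide array, 18 arrays in all, from 50 ng of total RNA after 2 rounds of amplification. The authors deposited linear signal intensities per probe set, scaled to an average of 250 per array, per the labels' protocols. The deposited detection calls were not used here, and for the scanner software's version and background treatment the sources used here give nothing. Probe sets were named from GEO's platform annotation where they list a single gene, and the brightest such probe set stood for its gene. Signals under a floor of 50 were set to 50 and log2 was taken. A gene counted as measured with at least 1 side above the floor, and a call needed 2-fold and at least 250 on the brighter side. Scale factors ran from 0.391 to 1.512 (type A) and from 1.047 to 4.009 (type B). Shared probe sets read 2.83-fold higher on type B, so types were not mixed within a fold. The floor was reached by 59.4% to 70.3% of type A probe sets and 68.0% to 74.3% of those of type B. With 1 library per population there is no replicate error, and the number of arrays limits the precision.

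The trend over culture day was fitted with limma 3.58.1 in R 4.3.3 with Benjamini-Hochberg adjustment over both types and was tested on simulated data. Other steps used Python 3.11.15, numpy 2.4.6, pandas 2.3.3 and matplotlib 3.10.9. Named genes are those called in each comparison, the highest and lowest fold and the widest and narrowest range per complex, the lowest p-values of the trend in each direction, the tissue-restricted subunits with their counterparts and the 4 Sdh genes. The genes and lists were chosen with earlier results of these data known. Alternatives covered the floor, scaling, fold and brightness of a call, choice of probe set, non-subunits, reference and libraries of the trend.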

Additional observations from a re-analysis of the deposited data

How the results depend on the processing

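No alternative moved a median fold of the oxidative phosphorylation genes by more than the SD of the array error, over 46 values, but the median of non-binding against somatic cells, 0.09, was -0.06 against the tubular library alone and 0.24 against the interstitial one. At 3-fold in place of 2-fold, 4 genes were higher and 3 lower in bound than in unbound cells, 2 lower on STO day 20 than on day 1, 7 higher and 1 lower on MSC1, 1 higher and 0 lower in tubular somatic cells, 1 higher in laminin-binding and 1 lower in non-binding cells than in both somatic fractions. In non-binding against both somatic fractions, 6 were higher after scaling at the 75th percentile and 1 among subunits only. The interstitial library alone as reference, added after the data were seen, gave 16 higher and 4 lower for non-binding and 27 higher and 2 lower for laminin-binding cells, where the tubular library alone gave 1 lower and the mean over probe sets 1 lower. A brighter side of at least 100 gave 2 lower in tubular somatic cells. The limma trend called 3 of 74 genes over linear day, among 1425 of 16066 probe sets. Without the STO day 1 library it called 9 of 74, among 1733 of 16009 probe sets. Under the other settings it called 0 of these genes. Scaling to the 75th percentile moved the median of all genes by -0.11 in the laminin sort, -0.14 between feeders and 0.15 in non-binding against somatic cells, and quantile normalization by -0.14 and -0.18 in the first 2. Relative to all genes, the median of the sort was 0.29 as reported, 0.32 and 0.34, and between feeders 0.20, 0.25 and 0.34. No alternative turned a called result around. No paired analysis was possible because each group holds 1 library per array type and no replicate numbers. Genes under the floor have no order, and folds within 1.4-fold lie inside the array error.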

Other observations

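Proteins of the mitochondrial ribosome, which translates the subunits encoded in mitochondria, were read on the same arrays. Of 73 measured genes 11 were called higher in bound than in unbound cells and 5 lower. Of all genes 12.9% were called higher and 11.9% lower, and of bright genes 19.3% and 17.8%. The median log2 fold of the 73 genes was 0.18, which lies near the 0.22 of all genes. Mrps30 was 4.61-fold and Mrps24 3.27-fold higher, while Mrpl3 was 7.98-fold, Mrpl15 5.67-fold and Mrpl1 5.25-fold lower. Against both somatic fractions 13 were higher in laminin-binding cells and 1 lower, and in non-binding cells 9 and 1, with medians of 0.40 and 0.30. Of all genes 11.1% were higher and 7.8% lower in laminin-binding cells, and 11.9% and 9.21% in non-binding cells. Mrpl38 was at least 5.13-fold and Mrps26 4.15-fold higher in laminin-binding cells than in the nearer somatic library. On STO day 20 against day 1 the counts were 3 and 4, on MSC1 against STO 7 and 3, and between the somatic fractions 4 and 2. The shares of all genes in the same order were 6.93% and 9.65%, 10.1% and 8.58%, and 8.88% and 10%.

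Among genes of substrate supply, the alpha subunit of pyruvate dehydrogenase has a somatic form on the X chromosome, Pdha1, and a testis form, Pdha2. Pdha1 read 1556 and 653.7 in interstitial and tubular somatic cells and 144.8 to 310.3 in the 7 germ cell libraries. Pdha2 read 698 in non-binding cells, 277 on STO day 20, 79.6 to 172.6 in the other germ cell libraries and 2.5 and 11.4 in the somatic ones. The libraries with the highest Pdha2 were those with the highest meiotic marker sums, and the part of cell composition was not tested. Between the feeder types the carriers and pores counted 3 higher and 0 lower on MSC1, with Vdac1 4.99-fold and Ucp2 4.40-fold higher, while citrate synthase was 7.80-fold lower. Of all genes 10.1% were higher and 8.58% lower on MSC1.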
